A study of Mus musculus with 15 samples.

Results

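The 10 genes described here encode proteins of the sarcomere scaffold, the M-band and the myosin-binding machinery of striated muscle, measured in RNA from the femoral callus region of mice. They were Mybpc1, Mybpc2, Myom1, Myom2, Myom3, Smtnl1, Tcap, Ttn, Neb and Ldb3, genes chosen on the FLT-Surgery vs. G-Surgery values of these arrays, so that those values are given here as a description. All 10 had at least 1 probe whose accession maps to their symbol, 16 probes in all among 55681 probes and 21150 named genes. The 15 arrays came from 15 male C57BL/6J mice, labelled as 9 weeks old. By the paper this was about their age at surgery, and tissue was taken about 4 weeks later. G-Sham (n = 4) were unoperated mice kept on the ground, FLT-Sham (n = 4) unoperated mice kept on the International Space Station, G-Surgery (n = 4) mice kept on the ground with a segmental bone defect (SBD) cut into the right femur, and FLT-Surgery (n = 3) mice with the same defect kept on the station. The defect held a scaffold wrapped in a saline-soaked collagen sponge over an intramedullary needle, the muscle over it was sutured, and no healing factor was added. Every sample carries the tissue label callus, and in unoperated mice the matching stretch of femur was taken. The comparisons ask how spaceflight changed the transcripts at the wound and in unoperated bone, and how surgery changed them on the ground and in flight.

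A sarcomere is the repeating contractile unit of striated muscle. Titin (Ttn) spans it from the Z-disc at its edge to the M-band at its centre. Nebulin (Neb) runs along the thin filament, telethonin (Tcap) caps titin in the Z-disc, and the PDZ-LIM protein of Ldb3 binds alpha-actinin there. Myomesins (Myom1, Myom2, Myom3) crosslink the thick filaments in the M-band, and myosin-binding protein C decorates them in a slow (Mybpc1) and a fast (Mybpc2) skeletal form. Smtnl1, a smoothelin-like protein, is no structural part of the sarcomere and is known as a regulator of myosin phosphatase in muscle. Bone itself has no sarcomeres, and skeletal muscle lies against the femoral shaft.

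Each array compared the sample RNA (Cy5, red) with 1 universal mouse reference RNA pooled from cell lines (Cy3, green), and levels below are the log2 ratio of sample over reference unless the Cy5 signal is named. The ratio of 1 probe was never set against that of another probe. Probes with Cy5 well above background made up 23.1 to 32.9% of probes on the G-Sham arrays, 26.6 to 38.5% on FLT-Sham, 25.7 to 37.2% on G-Surgery and 22.4 to 25.6% on FLT-Surgery. No member probe was saturated on any of the 15 arrays. Of the brightest probe of each of the 10 genes, 10 were above background on 11 of the 15 arrays, 8 on FLT-Surgery replicate 1, 7 on G-Sham replicate 1 and 6 on each of FLT-Surgery replicates 3 and 5. The mean log2 ratio over the 10 brightest probes was 3.06 and 2.98 on FLT-Surgery replicates 3 and 5, 5.14 on G-Sham replicate 1, 5.14 on G-Surgery replicate 1, 6.21 on FLT-Sham replicate 8 and 6.25 on FLT-Surgery replicate 1. It was 7.07 to 9.07 on the other arrays. G-Sham replicate 1 had the lowest ratio of its group for 8 of the 10 genes, FLT-Sham replicate 8 for 9 and G-Surgery replicate 1 for 10.

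The tissue label was set against marker genes. Of 13 osteoblast and osteocyte markers, 4 were above background on all 15 arrays and 4 (Sp7, Dmp1, Phex and Sost) on none, and their summed Cy5 signal was 176668 to 565054. Of 6 chondrocyte markers 0 were above background on all 15 arrays and 3 (Col10a1, Matn3 and Sox9) on none. All 13 skeletal muscle markers were above background on at least 1 array and 8 of them on all 15. In bulk RNA, fewer cells of a type and less RNA per cell cannot be told apart.

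The slow form of myosin-binding protein C was 1 of the 3 members whose FLT-Surgery arrays lay apart from all others. Mybpc1 (chromosome 10, 88518279 to 88605229, GRCm38.p6) had log2 ratios of 9.21, 8.70, 7.98 and 9.59 on G-Sham replicates 1, 3, 4 and 5, and of 9.46, 10.09, 7.78 and 9.47 on FLT-Sham replicates 4, 6, 8 and 9. It had 7.80, 10.64, 10.001 and 8.94 on G-Surgery replicates 1, 3, 4 and 5, and 6.87, 4.54 and 6.46 on FLT-Surgery replicates 1, 3 and 5. All 3 FLT-Surgery arrays were below each of the other 12 arrays, while the remaining groups overlapped. The FLT-Surgery mean of 5.96 ± 1.24 (SD, n = 3) stood against 9.35 ± 1.25 in G-Surgery (SD, n = 4), a difference of -3.39 ± 0.80 (SE). In the paper's own qPCR of this comparison Mybpc1 was also lower in FLT-Surgery, but by much less than on its array. The Cy5 signal was 5073, 1420 and 5785 on the FLT-Surgery arrays and 11013 to 61106 on the G-Surgery arrays, and this probe was above background on all 15 arrays in both channels.

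Myom3 (chromosome 4, 135758800 to 135815571), the myomesin of slow and intermediate fibres, was not above background on any FLT-Surgery array. Its log2 ratio was 0.87, -1.35 and 0.02 on FLT-Surgery replicates 1, 3 and 5, against 2.81, 7.26, 5.48 and 3.58 on G-Surgery replicates 1, 3, 4 and 5. It was 1.35, 4.22, 3.41 and 6.54 on the G-Sham arrays and 6.71, 8.06, 2.65 and 6.77 on the FLT-Sham arrays, in the replicate order given for Mybpc1. FLT-Surgery did not overlap any other group, and the low G-Sham array, replicate 1, was itself not above background. The measured difference from G-Surgery was -4.93 ± 1.08 (SE). With the FLT-Surgery arrays set at the lowest signal that counted as above background, Myom3 was at least 15.5-fold lower in FLT-Surgery than in G-Surgery, and at least 26.7-fold lower than in FLT-Sham. With normexp background correction and loess the Myom3 difference from G-Surgery was -1.97, smaller than the first of these bounds on the log2 scale, so the bounds hold for the scanner software's processed signals only. These bounds and those below use the Cy5 channel alone, scaled across arrays, and with no dye swap remain open to dye bias.

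Smtnl1 (chromosome 2, 84811173 to 84826847) was likewise not above background on the 3 FLT-Surgery arrays. Its log2 ratio was 3.35 on FLT-Surgery replicate 1 and -0.14 on replicate 5, and on replicate 3 neither channel was above noise, which the scanner software writes as exactly 0. G-Surgery replicates 1, 3, 4 and 5 had 4.13, 6.37, 4.98 and 4.48, so the groups did not overlap. G-Sham had 4.12, 6.14, 5.22 and 6.68, and FLT-Sham 6.49, 6.78, 3.67 and 7.11. The 12 arrays outside FLT-Surgery were all above background. The measured difference from G-Surgery was -3.92 ± 0.93 (SE), and the bound was at least 5.02-fold lower than in G-Surgery and at least 33.3-fold lower than in FLT-Sham. With normexp and loess the difference from G-Surgery was -0.75, again smaller than the bound.

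The stretches upstream of the start sites of these 3 genes and of Ttn are printed because the first 3 are the members whose groups separated, and Ttn is the member that followed the mean of the others most closely. RefSeq (GRCm38.p6) windows were at hand for 7 of the 10 genes, and the 250 bases before the start are shown 5′ to 3′ on the gene's strand. Capitals mark E-boxes (CANNTG) and, in Ttn and Myom3, also a match to the MEF2 consensus, searched on both strands, with no overlap between matches. The windows of Smtnl1 and Myom3 lie inside the annotated span of the gene, and those of Mybpc1 and Ttn overlap its 5′ end in part. The windows shown thus belong to starts other than the outermost.
Mybpc1, chr10:88605153-88605402, minus strand: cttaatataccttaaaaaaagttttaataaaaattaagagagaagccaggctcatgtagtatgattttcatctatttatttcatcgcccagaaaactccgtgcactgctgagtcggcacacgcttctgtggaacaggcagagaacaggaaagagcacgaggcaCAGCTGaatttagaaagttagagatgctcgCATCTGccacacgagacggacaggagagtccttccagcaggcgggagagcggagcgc
Myom3, chr4:135759465-135759714, plus strand: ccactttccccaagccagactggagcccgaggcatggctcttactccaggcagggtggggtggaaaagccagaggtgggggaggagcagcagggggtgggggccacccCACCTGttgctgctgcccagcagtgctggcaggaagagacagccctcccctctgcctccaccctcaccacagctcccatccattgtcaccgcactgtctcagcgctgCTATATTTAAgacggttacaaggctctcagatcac
Smtnl1, chr2:84822653-84822902, minus strand: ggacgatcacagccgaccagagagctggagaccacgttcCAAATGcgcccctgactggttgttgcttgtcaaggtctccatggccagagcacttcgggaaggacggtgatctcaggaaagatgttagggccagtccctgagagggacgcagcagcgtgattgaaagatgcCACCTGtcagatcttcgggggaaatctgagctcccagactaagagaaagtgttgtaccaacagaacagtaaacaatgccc
Ttn, chr2:76982548-76982797, minus strand: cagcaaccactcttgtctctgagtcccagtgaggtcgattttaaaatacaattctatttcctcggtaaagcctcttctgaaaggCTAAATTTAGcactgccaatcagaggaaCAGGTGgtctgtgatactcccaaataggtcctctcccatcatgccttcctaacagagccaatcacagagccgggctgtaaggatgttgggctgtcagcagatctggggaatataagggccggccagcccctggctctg
E-boxes were in the windows of 6 of the 7 genes (all but Ldb3) and in 66.2% of all 32851 windows of the same length. The MEF2 consensus was matched in Ttn and Myom3 (2.92% of all windows), and the CArG box in Ldb3 and Myom1 (1.47% of all windows). A match describes letters only.

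**Figure D1:**
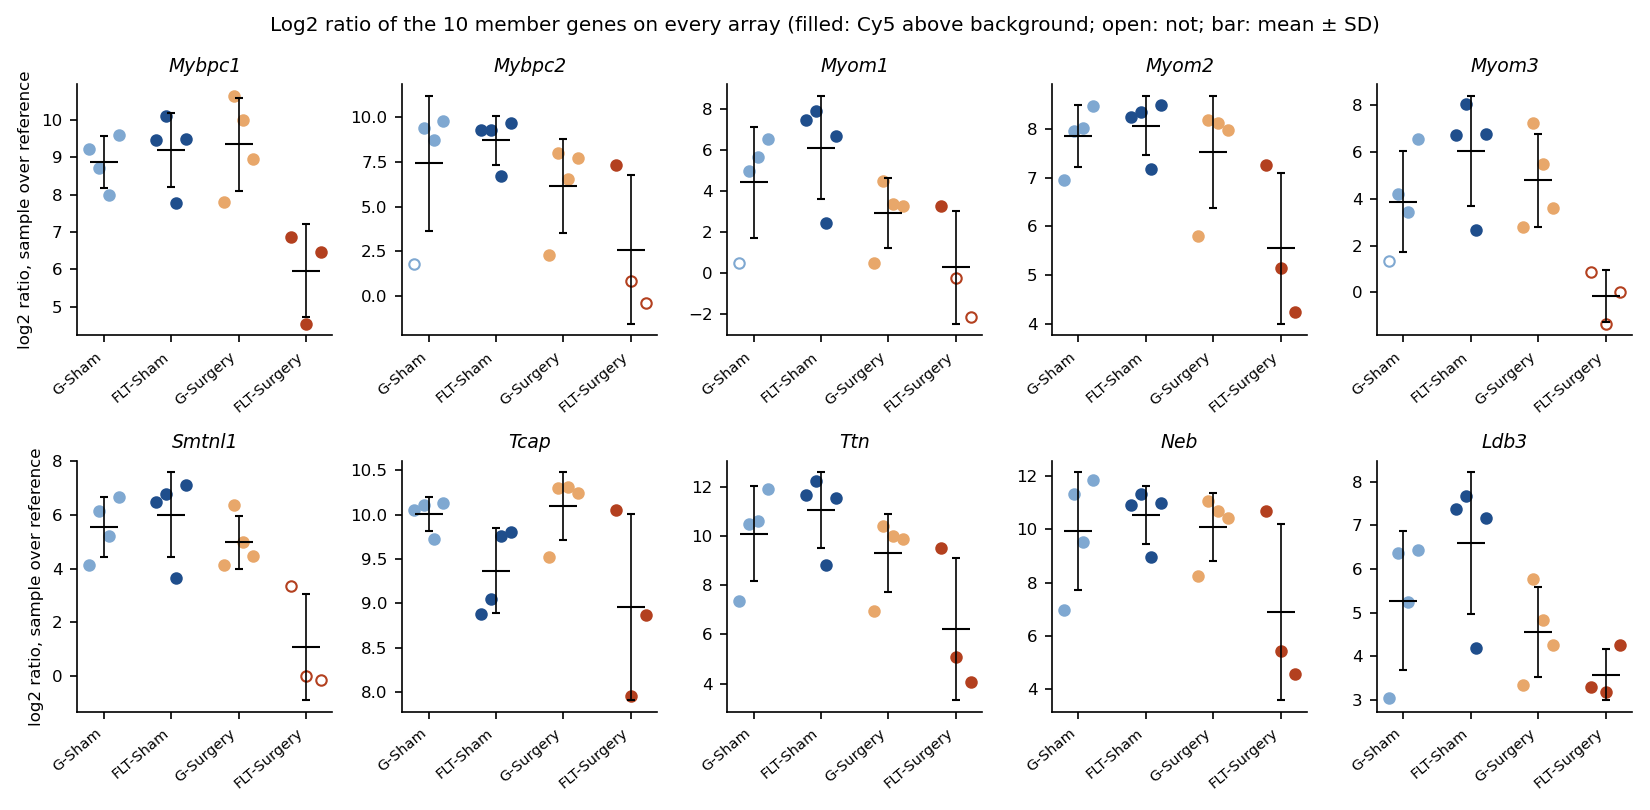
Each panel plots the log2 ratio of sample over reference (y axis) for the brightest probe of 1 gene on each array of the 4 groups (x axis), with filled points above background in Cy5, open points not, and a bar for mean ± SD. FLT-Surgery lies below every other array for Mybpc1, Myom3 and Smtnl1, and for most other genes 1 FLT-Surgery array (replicate 1) lies near the G-Surgery arrays.

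The fast form of myosin-binding protein C did not separate the groups. Mybpc2 (chromosome 7, 44501699 to 44524715) had log2 ratios of 7.34, 0.84 and -0.36 on FLT-Surgery replicates 1, 3 and 5, and the last 2 arrays were not above background. On G-Surgery it had 2.33, 8.01, 6.54 and 7.71, on G-Sham 1.81, 9.39, 8.71 and 9.78, and on FLT-Sham 9.27, 9.26, 6.69 and 9.65. FLT-Surgery replicate 1 thus lay within the range of the G-Surgery and FLT-Sham arrays, and the low arrays of both ground groups were their replicates 1. The difference of FLT-Surgery from G-Surgery was -3.54 ± 2.07 (SE). On FLT-Surgery replicate 1 the slow form, Mybpc1, was below all 4 G-Surgery arrays, while the fast form was below 2 of the 4.

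The other myomesins resembled Mybpc2 in this respect. Myom1 (chromosome 17, 71003332 to 71126856), the myomesin of all striated muscle, had 3.26, -0.26 and -2.15 on FLT-Surgery replicates 1, 3 and 5, with only replicate 1 above background. G-Surgery had 0.50, 4.50, 3.38 and 3.24, G-Sham 0.48, 4.98, 5.66 and 6.52, and FLT-Sham 7.44, 7.91, 2.42 and 6.66. Myom2 (chromosome 8, 15057653 to 15133420), known as M-protein and typical of fast fibres, had 7.25, 5.16 and 4.24 on FLT-Surgery against 5.81, 8.19, 8.13 and 7.98 on G-Surgery. It had 6.96, 7.96, 8.02 and 8.48 on G-Sham and 8.24, 8.34, 7.18 and 8.50 on FLT-Sham. The FLT-Surgery and G-Surgery ranges overlapped for both genes. FLT-Surgery replicate 1 was above G-Surgery replicate 1 for both, and for Myom1 also just above G-Surgery replicate 5. The differences were -2.62 ± 1.37 for Myom1 and -1.98 ± 0.85 for Myom2 (SE).

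Titin and nebulin had their lowest ratios on FLT-Surgery replicates 3 and 5. The brightest Ttn probe (gene on chromosome 2, 76703980 to 76982557) gave 9.50, 5.09 and 4.06 on FLT-Surgery, and 6.96, 10.40, 9.98 and 9.87 on G-Surgery. It gave 7.37, 10.48, 10.63 and 11.91 on G-Sham and 11.65, 12.22, 8.81 and 11.54 on FLT-Sham. The brightest Neb probe (gene on chromosome 2, 52136640 to 52338798) gave 10.70, 5.44 and 4.55 on FLT-Surgery and 8.23, 11.06, 10.69 and 10.42 on G-Surgery. For Neb, FLT-Surgery replicate 1 was above 3 of the 4 G-Surgery arrays, and for Ttn above G-Surgery replicate 1 alone. G-Sham had 6.96, 11.34, 9.53 and 11.87 for Neb, and FLT-Sham 10.92, 11.33, 8.95 and 10.99. The differences of FLT-Surgery from G-Surgery were -3.09 ± 1.38 for Ttn and -3.20 ± 1.46 for Neb (SE).

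The Z-disc members had the differences nearest to 0 in the ratio. Ldb3 (chromosome 14, 34526699 to 34590314) had 3.29, 3.18 and 4.25 on FLT-Surgery and 3.33, 5.78, 4.83 and 4.25 on G-Surgery, a difference of -0.97 ± 0.59 (SE). It had 3.05, 6.37, 5.24 and 6.45 on G-Sham and 7.37, 7.67, 4.18 and 7.16 on FLT-Sham. Tcap (chromosome 11, 98383811 to 98384953) had 10.05, 7.96 and 8.86 on FLT-Surgery and 9.52, 10.30, 10.31 and 10.24 on G-Surgery, a difference of -1.13 ± 0.50 (SE). It was the 1 member with a lower mean ratio in FLT-Sham (8.88, 9.05, 9.76 and 9.80) than in G-Sham (10.05, 10.10, 9.73 and 10.13). FLT-Surgery overlapped G-Surgery for both genes. In Cy5 signal the mean difference of FLT-Surgery from G-Surgery was -2.23 for Tcap and -0.79 for Ldb3 on the log2 scale.

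The order of the group means was alike across the members at its ends. FLT-Surgery had the lowest mean log2 ratio for all 10 genes, and FLT-Sham the highest for 8, with G-Surgery highest for Mybpc1 and Tcap. By Cy5 signal alone FLT-Surgery was lowest and FLT-Sham highest for all 10 genes. Only the step from the third group to FLT-Surgery for Mybpc1, Myom3 and Smtnl1 was free of overlap, on either scale, and all other neighbours in the order overlapped. Since the genes were listed with the FLT-Surgery values known, the low place of FLT-Surgery is a description.

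In the FLT-Surgery vs. G-Surgery comparison, from which the genes were listed, all 10 were lower in FLT-Surgery. The median difference was -3.15 against -0.20 over all 16548 probes tested. Past the study's cut-off, a fold change of at least 2 with an unadjusted p of at most 0.01 from limma's moderated test, were 3 genes, Mybpc1, Myom3 and Smtnl1, and 2.09% of all tested probes were past it on the lower side. The same 3 genes had no overlap between the groups, as 7.52% of all tested probes had on the lower side. Without FLT-Surgery replicate 1 the count was 9, all but Ldb3. In that fit 2052 of all 16110 tested probes were past the cut-off (10.2% of them higher), against 519 of 16548 with every array. Without FLT-Surgery replicate 3 the count of members was 0 (3 at an unadjusted p of at most 0.05 by limma), without replicate 5 it was 2, Mybpc1 and Myom3, and without any 1 G-Surgery array it stayed at 3. Over all probes 352 of 16295 and 357 of 15914 were past the cut-off without FLT-Surgery replicates 3 and 5, and 245 to 728 without 1 G-Surgery array. Within the first slide, with 2 FLT-Surgery arrays and 3 G-Surgery arrays, the 10 differences ran from -5.29 to -0.42. The second slide held 1 array of each group, FLT-Surgery replicate 1 and G-Surgery replicate 3, and its differences of -6.38 to -0.25 have no replicate check. Over all probes, 346 were called lower and 173 higher (33.3% higher), a split that became 94.8% higher after a further loess fit 82.7% with normexp and loess and 74.9% in Cy5 alone.

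**Figure D2:**
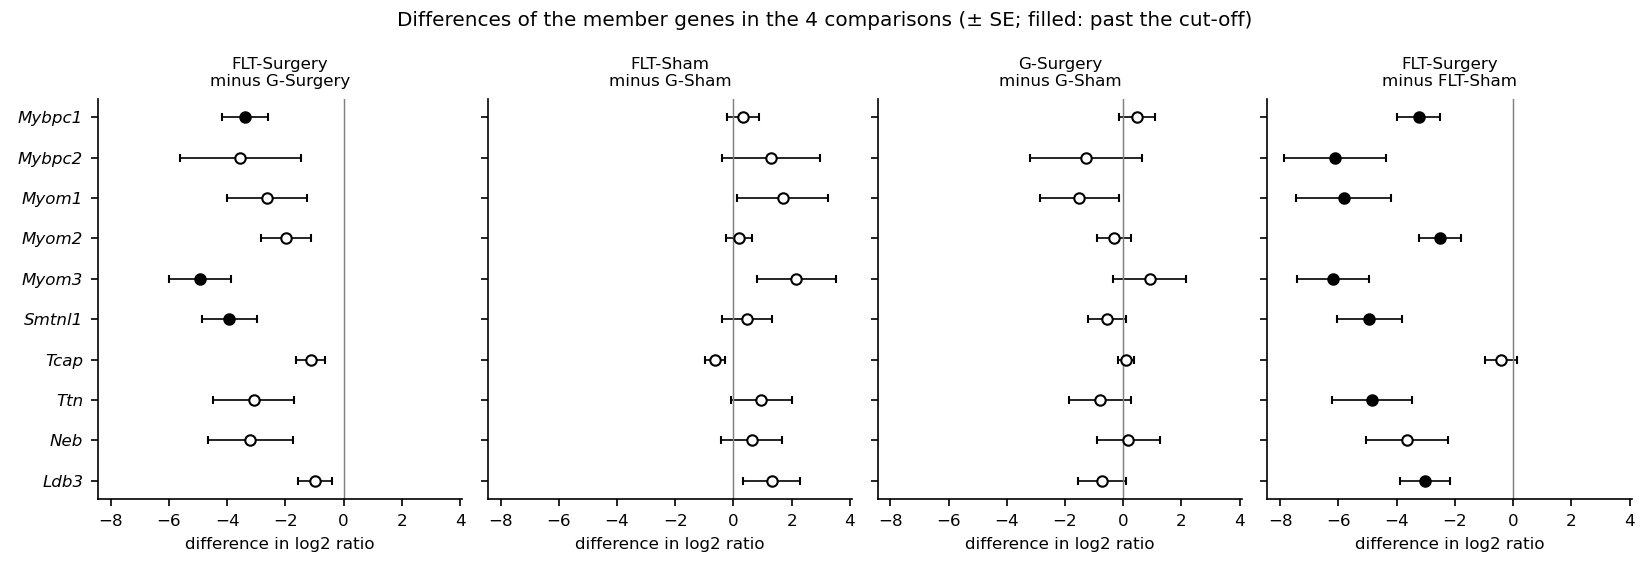
The 4 panels plot, for each of the 10 genes (y axis), the difference between group means of the log2 ratio with its SE (x axis) in the 4 comparisons, with filled points past the cut-off. FLT-Surgery was lower than G-Surgery for all 10 genes and lower than FLT-Sham for all 10, while the differences in the 2 comparisons without FLT-Surgery lay on both sides of 0.

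The FLT-Sham vs. G-Sham comparison shares no array with the one the genes were listed from, so it could be tested. Of the 10 genes, 9 had a higher mean log2 ratio in FLT-Sham and Tcap a lower one, with a median difference of 0.79 against 0.24 over all 19739 probes tested. The largest difference was that of Myom3, 2.17 ± 1.35 (SE; limma, Benjamini-Hochberg adjusted p = 0.537), followed by Myom1 with 1.69 ± 1.55 (adjusted p = 0.593). Ldb3 had 1.32 ± 0.98 (adjusted p = 0.556), Mybpc2 1.30 ± 1.69 (adjusted p = 0.693), Ttn 0.96 ± 1.05 (adjusted p = 0.641) and Neb 0.62 ± 1.06 (adjusted p = 0.763). Smtnl1, Mybpc1 and Myom2 had 0.47, 0.33 and 0.21 with adjusted p-values of 0.777, 0.765 and 0.814, and Tcap had -0.63 ± 0.33 (adjusted p = 0.522). For Smtnl1 the reference channel was above background on 0 of 4 G-Sham arrays and on 3 of 4 FLT-Sham arrays, so its ratio rests on a denominator near noise, and in Cy5 alone its difference was 1.67 ± 1.06 (SE). With array weights 3 of the 10 genes had an adjusted p below 0.05 by limma, Myom3 (2.92, adjusted p = 0.0324), Ldb3 (1.67, adjusted p = 0.0404) and, lower in FLT-Sham, Tcap (-0.91, adjusted p = 0.0401). The weights raised calls over all probes as well. They put 4690 of the 19739 tested probes past the study's cut-off, against 394 without weights, and 1 of the 10 genes (Myom3).

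Past the cut-off in FLT-Sham vs. G-Sham were 0 of the 10 genes by limma, and 0 had an unadjusted p up to 0.05, against 2.0% of all tested probes past the cut-off in either direction. For 0 of the 10 the groups were free of overlap, against 4.60% of all tested probes. G-Sham replicate 1 and FLT-Sham replicate 8 were the low arrays of these groups. Without G-Sham replicate 1, Mybpc2 (-0.57), Neb (-0.37), Myom2 (-0.09) and Smtnl1 (-0.002) no longer had a higher mean in FLT-Sham. Within the first slide, with 1 array a group, 7 of the 10 genes were higher in FLT-Sham (Mybpc2, Neb and Tcap lower), and within the second 8 were (Mybpc1 and Tcap lower). The direction for Tcap turned with the scale, being 0.72 higher in FLT-Sham in Cy5 alone, and those of Mybpc1 (-0.10) and Myom2 (-0.08) turned after a further loess fit. A p that misses the threshold does not show that the groups were alike. Marker lists, described further below, also differed here. Lower in FLT-Sham were 0 of 4 adipocyte (median 3.05) and 0 of 4 erythroid genes (2.48). Of these, 4 and 3 had an unadjusted p of at most 0.05 by limma. Skeletal muscle had 3 of 13 lower (0.77, 0 at that p), and endothelial 2 of 3 (-0.15). The part of tissue content in the members' differences was not tested.

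Surgery on the ground gave small differences of both signs. In G-Surgery vs. G-Sham, 6 of the 10 genes were lower and 4 (Mybpc1, Myom3, Tcap and Neb) higher, from -1.51 (Myom1) to 0.90 (Myom3), with a median of -0.44 against 0.14 over all 17675 probes tested. Past the cut-off were 0 genes by limma (0 at an unadjusted p of at most 0.05), against 2.59% of all tested probes in either direction, and 0 were free of overlap, against 6.86%. The sign was not stable. It turned with the slide, with 9 of 10 genes lower in G-Surgery within the first slide and 0 of 10 within the second. The second slide held 1 G-Surgery array and, of G-Sham, replicate 1 and replicate 5. Without G-Surgery replicate 1 Myom2 was 0.24, without G-Sham replicate 1 Neb was -0.81, and over the mean of its probes Mybpc1 was -0.86. This comparison shares the G-Surgery arrays with the one the genes were listed from.

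In flight every member had a lower mean ratio after surgery, with the direction of Tcap depending on the setting. In FLT-Surgery vs. FLT-Sham the 10 measured differences ran from -6.20 (Myom3) and -6.11 (Mybpc2) to -0.41 (Tcap), with a median of -4.25 against -0.28 over all 19136 probes tested. Myom3 was above background on 0 of 3 FLT-Surgery arrays and Mybpc2 on 1 of 3, so these sizes and their rank are not exact. The bound for Myom3 was at least 26.7-fold lower. Past the cut-off were 8 genes, all but Tcap and Neb, where 6.22% of all tested probes were past it on the lower side. Without overlap on the lower side were Mybpc1, Myom3 and Smtnl1, where 10.6% of all tested probes were. The FLT-Surgery arrays are those of the comparison the genes were listed from, so the count carries no p. It was 3 without FLT-Sham replicate 4, 6 or 9 (Mybpc1, Myom3 and Smtnl1 each time) and 2 without FLT-Surgery replicate 3 or 5 (Mybpc1 and Myom3). Over all probes 297 to 464 were past the cut-off in these fits, against 1272 with every array. Within the first slide all 10 genes were lower in FLT-Surgery, and within the second, which held FLT-Surgery replicate 1, 8 were, with 0.51 for Tcap and 0.27 for Neb. The Tcap difference was also above 0 after a further loess fit (0.65), with slide as a block (0.05) and without FLT-Surgery replicate 3 (0.09), and was -3.08 in Cy5 alone. Of all calls in this comparison 6.37% were on the higher side, and 51.7% after a further loess fit, 33.1% with normexp and loess and 21.4% in Cy5 alone.

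The ratio and the sample signal did not run in parallel for every member, since the Cy3 signal of the common reference also differed between arrays. For Tcap the Cy3 signal was 40.5 on FLT-Surgery replicate 3 and 2546 on FLT-Sham replicate 6, a range of 62.9-fold, where the Cy5 signal ran from 10074 to 1349635 on the same arrays. On FLT-Sham replicates 4, 6, 8 and 9 the Tcap Cy5 signal was 781740, 1349635, 52896 and 518325, with Cy3 signals of 1664, 2546, 61.2 and 582. The Cy3 signal of Tcap was thus high on the arrays where its Cy5 signal was high, in scanner values with 1 reference RNA in every hybridisation. For Myom2 the Cy3 range was 5.76-fold (highest on FLT-Sham replicate 6, 939), for Mybpc2 11.2-fold and for the brightest Ttn probe 3.32-fold. What links the channels was not tested, and a difference in the ratio of Tcap can be smaller than, or opposite to, that in Cy5.

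**Figure D3:**
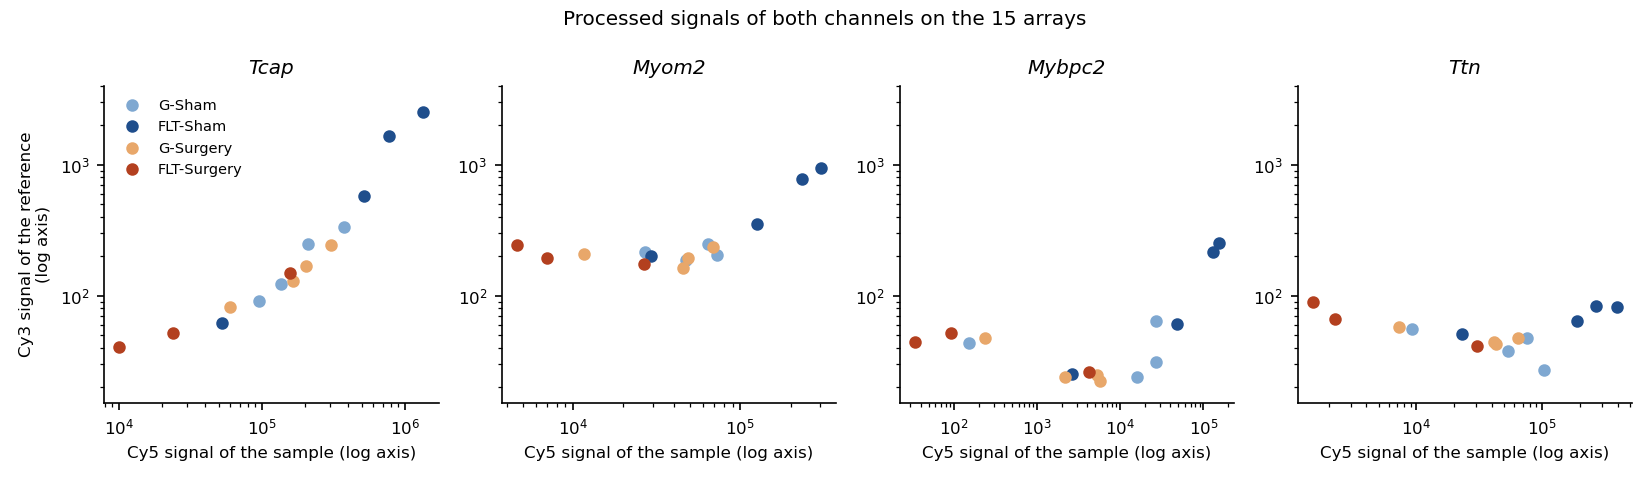
Cy3 signal of the reference (y axis, log scale) against Cy5 signal of the sample (x axis, log scale) on the 15 arrays for the brightest probes of Tcap, Myom2, Mybpc2 and Ttn, coloured by group. The Cy3 signal of Tcap spanned 62.9-fold along with Cy5, whereas that of Ttn spanned 3.32-fold.

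By Cy5 signal the spread within FLT-Sham was wide for all members. Smtnl1 had Cy5 signals of 9449, 16865, 364 and 10008 on FLT-Sham replicates 4, 6, 8 and 9, against 315, 1305, 1568 and 2278 on G-Sham replicates 1, 3, 4 and 5. Mybpc2 had 131795, 153816, 2621 and 48373 on FLT-Sham against 153, 15841, 27000 and 27196 on G-Sham. On FLT-Sham replicates 4, 6 and 9 both genes were thus above all G-Sham arrays, and on replicate 8 within their range. The mean Cy5 difference of FLT-Sham from G-Sham was positive for all 10 genes, with overlap for each.

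Genes with more than 1 probe allowed the ratios to be set side by side within a gene, by direction only. Of the 16 probes, 14 could be tested in FLT-Surgery vs. G-Surgery, and 13 of these were lower in FLT-Surgery. The exception was the Ttn probe A_55_P2153031 with a difference of 0.07 ± 0.83 (SE), which had log2 ratios of 4.84, 1.85 and 4.93 on FLT-Surgery replicates 1, 3 and 5 and 2.73 to 4.56 on G-Surgery. On FLT-Surgery replicates 1 and 5 this probe was higher than on every G-Surgery array, while the brighter Ttn probes A_55_P2153021 and A_52_P454295 were at 4.06 and 5.24 on replicate 5, below every G-Surgery array. The second Mybpc1 probe, A_55_P2008443, and the Ttn probe A_55_P2424042 were too dim to be tested there, since they were above background on 2 and 1 of the G-Surgery arrays and on no FLT-Surgery array.

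The second probes of Neb and Ldb3 were dim in FLT-Surgery. The second Neb probe, A_55_P2116978, was above background on 3 of the 4 arrays in each of the other groups and on 0 of 3 in FLT-Surgery, and was at least 1.41-fold lower than in G-Surgery and at least 21.9-fold lower than in FLT-Sham. The second Ldb3 probe, A_65_P11603, was above background on 3 of 4 arrays in the other groups and on 1 of 3 in FLT-Surgery, with a difference from G-Surgery of -0.96 ± 1.21 (SE) beside the -0.97 of the brighter probe. Over the 15 arrays the 2 Ldb3 probes correlated at r = 0.956 and the 2 brighter Ttn probes at r = 0.856, whereas A_52_P454295 and A_55_P2153031 of Ttn correlated at r = 0.395, all points sharing the array and its depth. In FLT-Sham vs. G-Sham A_52_P454295 differed by -0.30 ± 0.67 (limma, adjusted p = 0.825) and the brightest Ttn probe by 0.96.

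**Figure D4:**
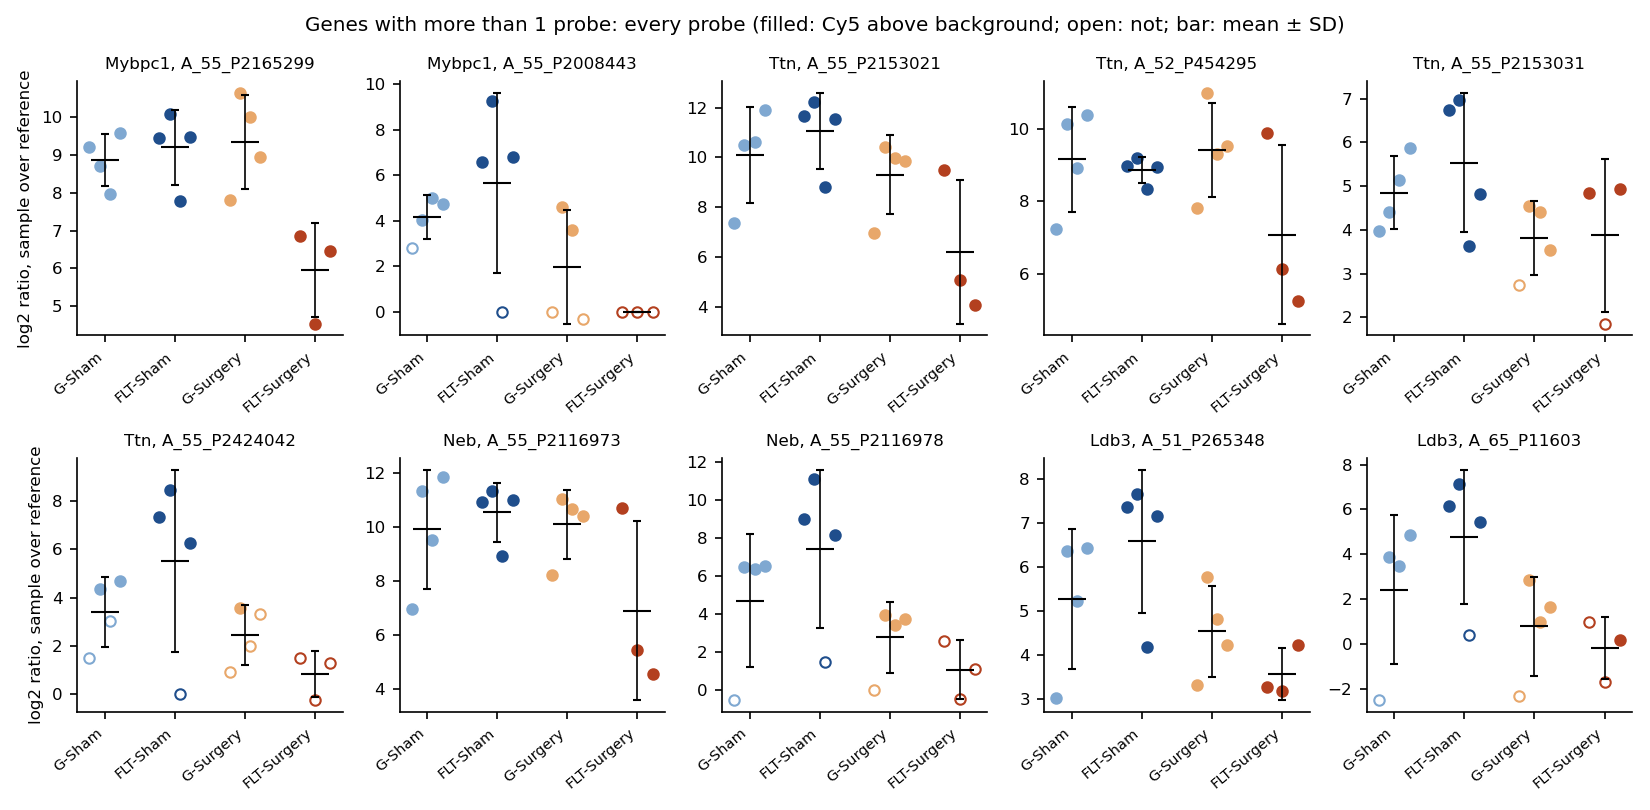
Log2 ratio of sample over reference (y axis) for every probe of Mybpc1, Ttn, Neb and Ldb3 on the arrays of the 4 groups (x axis), filled where Cy5 was above background, with mean ± SD. The Ttn probe A_55_P2153031 reached 4.84 and 4.93 on FLT-Surgery replicates 1 and 5, above the G-Surgery arrays, while the brightest Ttn probe was lower on FLT-Surgery.

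The other genes of the sarcomere were taken from 4 lists. Of 68 such genes, 51 could be tested in FLT-Surgery vs. G-Surgery, 48 of which were lower in FLT-Surgery and 11 past the cut-off, all lower. Of all tested probes 2.09% were past it on the lower side. Of the thick filament genes (11 listed, 10 tested), 10 were lower and 3 past the cut-off, Myl2 (-6.23 ± 1.79), Myh2 (-5.48 ± 1.08) and Myl3 (-3.65 ± 0.80; SE), with a list median of -3.34 against -0.20 over all tested probes. Myl2 and Myl3 encode light chains of slow skeletal and cardiac muscle, and Myh2 the heavy chain of type IIA fibres. The fast heavy chain Myh4 had the smallest difference of the list in the ratio, with 11.18 ± 0.68 in FLT-Surgery (n = 3) and 11.65 ± 0.14 in G-Surgery (SD, n = 4). Its Cy5 signal was 791893, 53198 and 10779 on FLT-Surgery replicates 1, 3 and 5, and 145150 to 727481 on G-Surgery. On replicates 3 and 5 it was below every G-Surgery array, so ratio and Cy5 signal did not run in parallel for Myh4. Myh8, the perinatal heavy chain and the brightest probe of the list, had 10.50 ± 0.85 against 11.18 ± 0.41, and near-identical myosin heavy chain genes can share probe signal.

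Of 12 thin filament genes tested (18 listed), 11 were lower and 1 past the cut-off, Tnnt1, the slow troponin T, at -2.72 ± 0.67, with a median of -1.38. Klhl41, which stabilises nebulin, had 1.17 ± 2.53 in FLT-Surgery against 4.79 ± 0.80 in G-Surgery, the fast troponin Tnnc2 9.28 ± 0.84 against 10.13 ± 0.72, and Tpm3 0.36 ± 0.20 against 0.24 ± 0.22. Of 20 Z-disc genes tested (24 listed), 18 were lower and 5 past the cut-off, with a median of -1.68. The largest measured differences were those of Csrp3 (-6.14 ± 1.56) and Myoz2 (-4.55 ± 0.85), a muscle LIM protein and the calsarcin of slow fibres. Neither was above background on any FLT-Surgery array, so these sizes and their rank are not exact. The bounds were at least 3.95-fold and 3.58-fold lower there than in G-Surgery. In the paper's own qPCR Myoz2 was also lower in FLT-Surgery, but by much less than on its array. Synpo2l was higher in FLT-Surgery, 5.08 ± 0.34 against 4.09 ± 0.32. Of 9 tested genes of the M-band, myosin-binding and titin-associated list (15 listed), 9 were lower and 2 past the cut-off, Smpx (-3.95 ± 1.06, below background on every FLT-Surgery array and at least 1.93-fold lower) and the titin-binding ubiquitin ligase Trim63 (-2.60 ± 0.60), with a median of -1.22. Creatine kinase Ckm had 4.63 ± 3.04 against 7.26 ± 1.03, Speg 0.49 ± 1.16 against 1.34 ± 0.64, and Smyd1 0.44 ± 0.36 against 0.46 ± 0.68.

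In FLT-Sham vs. G-Sham, 63 of the 68 genes could be tested, with 54 above 0, 9 below it and 0 past the cut-off by limma (4 at an unadjusted p of at most 0.05). The medians were 0.36 for the thick filament, 0.91 for the thin filament, 1.13 for the Z-disc and 1.87 for the M-band list, against 0.24 over all tested probes. In G-Surgery vs. G-Sham 1 of 56 was past the cut-off, Actn2 at -4.11 ± 1.06 (SE), against 2.59% of all tested probes in either direction. In FLT-Surgery vs. FLT-Sham 26 of 61 were, all lower, 14 of them Z-disc genes, against 6.22% of all tested probes on the lower side.

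**Figure D5:**
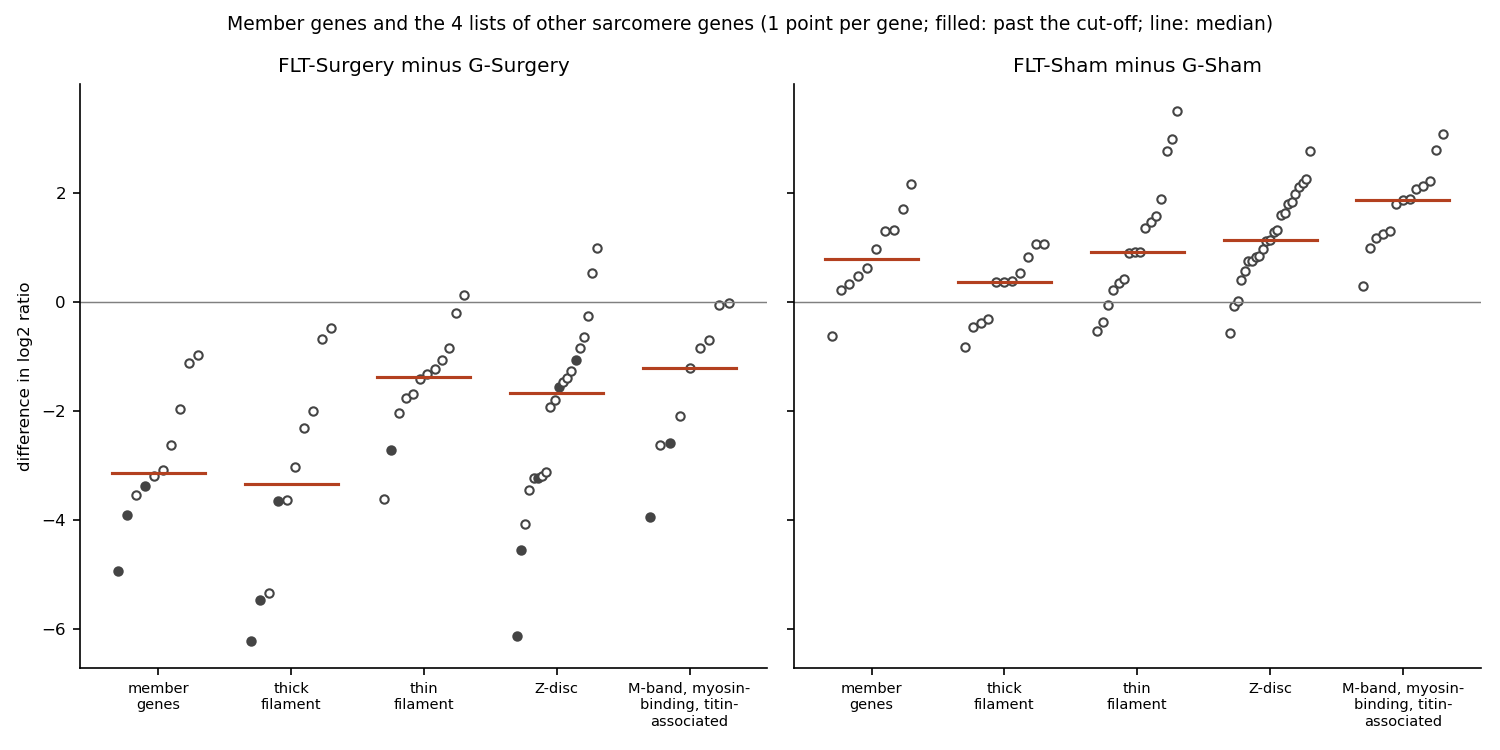
Difference in log2 ratio (y axis) of each tested gene of the member list and of 4 lists of other sarcomere genes (x axis) in FLT-Surgery minus G-Surgery and FLT-Sham minus G-Sham, filled where past the cut-off, with a line at the median. The member median was -3.15 in the first and 0.79 in the second, and 48 of 51 other genes lay below 0 in the first against 9 of 63 in the second.

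General markers of skeletal muscle moved with the members. Of 13 markers, 11 could be tested in FLT-Surgery vs. G-Surgery, all 11 were lower in FLT-Surgery and 0 were past the cut-off by limma (3 at an unadjusted p of at most 0.05), with a median of -1.70. Their summed Cy5 signal was 2317647, 234534 and 249721 on FLT-Surgery replicates 1, 3 and 5, and 608122 to 2812931 on G-Surgery, 665392 to 4064478 on G-Sham and 1208448 to 11437842 on FLT-Sham. FLT-Surgery replicate 1 was thus within the G-Surgery range for the summed muscle markers and below the G-Surgery arrays for Mybpc1, Myom3, Smtnl1 and Ldb3 (for Ldb3 3.29 against a lowest G-Surgery ratio of 3.33). The low G-Surgery, G-Sham and FLT-Sham values were those of replicates 1, 1 and 8, the arrays on which most members were low. The part of muscle content in the members' differences was not tested.

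Markers of other cell types also stood lower in FLT-Surgery than in G-Surgery for most lists, where the median over all tested probes was itself -0.20. On single arrays the summed Cy5 signal went the other way. It was 20023 for tendon on FLT-Surgery replicate 3 and 57591 for endothelial markers on replicate 5, against at most 3957 and 24825 on G-Surgery. Lower in the ratio were 3 of 5 smooth muscle, 6 of 7 osteoblast and osteocyte, 3 of 3 chondrocyte (1 past the cut-off), 3 of 3 osteoclast, 3 of 3 erythroid, 5 of 6 neutrophil, 2 of 2 B cell, 2 of 2 adipocyte, 1 of 2 endothelial and 2 of 2 tendon genes that could be tested. In FLT-Surgery vs. FLT-Sham the medians were -5.15 for erythroid, -4.88 for adipocyte, -3.34 for skeletal muscle and -3.105 for neutrophil markers, and 0.43 for endothelial. Past the cut-off, all lower, were 4 of 4, 3 of 4, 3 of 13 and 3 of 7 of the first lists. So were 2 of 8 osteoblast and osteocyte and 1 of 2 tendon markers, against 6.22% of all tested probes. The part of tissue content in the members' differences was not tested.

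Among 11054 named genes outside the list, those whose log2 ratio was most like the mean of the 10 members over the 15 arrays were Myo18b (r = 0.990), Rhot2 (0.985), Sh3bgr (0.981), Cox8b (0.981) and Cox6a2 (0.980). The 15 points share array, depth and reference, so the coefficients describe these arrays. Among the members themselves, Ttn correlated best with the mean of the other 9 (r = 0.982) and Tcap least (r = 0.457). Mybpc1 was closest to Myom3 (r = 0.890) and Smtnl1 (r = 0.873), and Mybpc2 to Ttn (r = 0.969).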

How the data were processed

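Total RNA of the femoral callus region, or of the same region of unoperated femurs, came from partly thawed carcasses, 1 two-colour Agilent mouse array per mouse, sample in Cy5 and universal mouse reference RNA in Cy3, with no dye swap. The paper reports low RNA integrity, comparable between flight and ground bone, and names it among its limitations. Its bearing on dim or disagreeing probes and on low arrays was not tested. Feature Extraction (version 12.0 in the submitters' processing notes) had corrected the background, normalised the dyes by a linear and LOWESS fit and written the log10 ratio of red over green and the processed intensity of each channel. The deposited values used here were this log10 ratio, multiplied into log2, and the processed and raw median intensity, with the software's flags for signal well above background. The series table, also deposited by the authors, holds the same log10 ratios and served as an alternative. A ratio written as exactly 0, where neither channel was above noise, is no measured ratio; it was left at 0.

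Probes were named through RefSeq accessions (28020 of 55681 probes had a symbol, GRCm38.p6). Spots of a probe were averaged, and the brightest probe by mean log2 Cy5 intensity stood for a gene. Groups were taken from the labels. Each comparison was fitted with limma 3.58.1 (R 4.3.3) on the arrays of its 2 groups, over all probes with Cy5 above background on at least 3 arrays. The cut-off follows the study's methods (2-fold, with limma's unadjusted p no larger than 0.01). After Benjamini-Hochberg adjustment, at 0.05, the 4 comparisons called 0, 0, 2 and 16 probes. Only FLT-Sham vs. G-Sham carries p-values for single members. In the other comparisons the counts of members within a p limit are a description. The members, the lists and the markers were chosen with earlier results of these data known. Genes named beyond the members were, per list, the 2 lowest differences and the highest in FLT-Surgery vs. G-Surgery, the brightest probe, and the 5 named genes most correlated with the members' mean; other list genes past the cut-off and the bounds for Csrp3, Myoz2 and Smpx were added after their values were seen. The MEF2 consensus replaced a looser pattern, free at its 4 central bases, after the matches of that pattern (Ttn and Ldb3) were seen. Lower bounds used Cy5 after Aquantile scaling. Alternatives were a further loess fit, median centring, normexp background correction with an offset of 50 followed by loess, Cy5 alone centred on its 75th percentile, the series table, no filter or a stricter one, all 15 arrays in 1 fit, slide as a block, array weights, the mean over probes, a replicate block, and leaving out each array. The normexp setting ran on median pixel signals, the raw signals used here. Fits were tested on simulated data. Replicates are separate mice, and their number limits the precision.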

Additional observations from a re-analysis of the deposited data

Results flagged for a closer look

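Of 30 groups of 4 arrays (10 genes in 3 groups), 6 held an array far from the other 3 by Dixon's test. Chance gives about 1.5 where the 30 are independent. They are not, since the 10 genes share arrays and move together, so the 6 cannot be read as an excess over chance. All 6 were the lowest array of their group. On G-Sham replicate 1 Mybpc2 had a log2 ratio of 1.81 against 8.71 to 9.78 on the other G-Sham arrays. On FLT-Sham replicate 8 Mybpc2 had 6.69 against 9.26 to 9.65, and Ldb3 had 4.18 against 7.16 to 7.67. On G-Surgery replicate 1 Myom2 had 5.81 against 7.98 to 8.19, Tcap 9.52 against 10.24 to 10.31, and Ttn 6.96 against 9.87 to 10.40. The same 3 arrays had the lowest summed signal of the skeletal muscle markers in their groups. The cause was not tested.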

How the results depend on the processing

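The count of members past the cut-off in FLT-Surgery vs. G-Surgery, 3 of 10, was 1 with normexp and loess (Mybpc1), 1 of the 5 genes tested with both channels above background on every array (Mybpc1), 6 with array weights, and 0 to 9 on leaving out 1 array. The replicate numbers of the labels did not pair the samples (correlations of same-numbered deviations -0.36, -0.19 and 0.24 in this comparison), and with the replicate block the count was 0 (3 at an unadjusted p of at most 0.05 by limma). In FLT-Surgery vs. FLT-Sham the count of 8 was 4 after a further loess fit, 2 with normexp and loess, 4 of 5 with both channels above background, 3 without the filter on dim probes, 3 with slide as a block, and 2 to 8 on leaving out 1 array. In FLT-Sham vs. G-Sham it was 1 with array weights (Myom3; 5 genes at an unadjusted p of at most 0.05, and 3 at an adjusted p below 0.05 by limma) and 0 to 0 on leaving out arrays, and in G-Surgery vs. G-Sham it was 0 in each setting, the replicate block included. Of the other planned settings, none moved a count of members by more than 1.5 times. Over all probes, and with no array left out, the 519 calls of FLT-Surgery vs. G-Surgery were 208 with normexp and loess, 215 with the replicate block, 1190 after loess, 1290 with slide as a block and 2024 with array weights. The 394 of FLT-Sham vs. G-Sham ran from 33 (normexp and loess) to 4690 (array weights), the 458 of G-Surgery vs. G-Sham from 180 to 692 in the same settings, and the 1272 of FLT-Surgery vs. FLT-Sham from 293 to 9285, again in the same settings. A further loess fit shifted the median of all tested probes by 0.49 in FLT-Surgery vs. G-Surgery, by -0.37 in FLT-Sham vs. G-Sham and by 0.64 in FLT-Surgery vs. FLT-Sham. In FLT-Sham vs. G-Sham the direction turned for Mybpc1 (-0.10) and Myom2 (-0.082) after the further loess fit, for Tcap in Cy5 alone (0.72), and without G-Sham replicate 1 for Mybpc2 (-0.57), Myom2 (-0.09), Smtnl1 (-0.002) and Neb (-0.37). Over all arrays left out in turn these 4 ran from -0.57 to 2.08, -0.09 to 0.51, -0.002 to 1.25 and -0.37 to 1.27. In FLT-Surgery vs. G-Surgery Ldb3, not past the cut-off, was 0.15 after the further loess fit, and no other member turned in any setting run of that comparison. In FLT-Surgery vs. FLT-Sham Tcap ran from -3.08 to 0.65, and Neb turned within the second slide alone (0.27). In G-Surgery vs. G-Sham, where 0 genes were past the cut-off, the range over settings, slides and arrays left out held both signs for all 10 genes. The cause was not tested. Without both G-Sham replicate 1 and FLT-Sham replicate 8, an alternative chosen after seeing the data like that for ratios of exactly 0, 0 of 10 genes were past the cut-off (3 at an unadjusted p of at most 0.05). Signal near background in FLT-Surgery limits Myom3 and Smtnl1, above it on 0 of 3 arrays, and Mybpc2 and Myom1, above it on 1 of 3. With normexp and loess their differences from G-Surgery were -1.97, -0.75, -1.27 and -0.51.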
